A study of Canis lupus familiaris with 7 samples.

Results

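The HOX genes are homeobox genes that stand side by side in 4 chromosomal clusters, HOXA to HOXD, and were described here in canine osteosarcoma (OSA) and bone together with the long noncoding RNAs HOTAIR and HOTAIRM1 that are transcribed from within the clusters. Members were the rows of the expression table whose symbol was HOX, a cluster letter and a number, or began with HOTAIR. This gave 41 of 24580 features, of which 33 were HOX genes (10 in HOXA, 10 in HOXB, 6 in HOXC and 7 in HOXD) and 8 were segments of HOTAIR or HOTAIRM1. The study sequenced RNA of 4 non-tumor samples (N1, N3, N8 and N9), labelled as bone with no gross sign of malignancy, and 3 OSA samples (T1, T3 and T10) taken from dogs after amputation or euthanasia. The question was which genes differ in level between tumor and non-tumor bone. The non-tumor pieces were taken next to tumors, breed, age and skeletal site per sample were not given in the sources used here, and no agent or genetic change was applied. The labels speak of matched tissue, but do not say that a shared number (N1 with T1, N3 with T3) marks a single dog. Each group is a set of separately labelled samples, and the *p*-values measure only the spread between them.

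HOX proteins are transcription factors that give cells along the head-to-tail axis and along the limb their position. Genes are numbered by paralog group, from 1 at the anterior end of a cluster to 13 at the posterior end, and the order along the chromosome follows the order of expression along the body. The posterior groups pattern the limb segments, and connective tissue and bone cells of adults keep part of the pattern of the place they come from. Polycomb proteins hold the clusters silent and Trithorax proteins hold them active. HOTAIR lies in the HOXC cluster and is known for binding Polycomb complexes, and HOTAIRM1 lies at the anterior end of HOXA and is known from myeloid cells.

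Values are FPKM, fragments per kilobase of transcript scaled to the mapped fragments of the library, as the authors computed them, and differences are on the log2(FPKM + 1) scale, which understates the change of low genes. The summed FPKM of the 33 HOX genes was 191.7, 27.2, 80.8 and 52.3 in N1, N3, N8 and N9, against 158.2, 134.2 and 66.5 in T1, T3 and T10. The groups overlapped, and N1 was the highest of all 7 samples. The FPKM of all features summed to about 539600 in N1 and 1752000 in N8, the lowest and highest of the 7 samples. As a share of these totals the HOX genes held 0.0355%, 0.0039%, 0.0046% and 0.0040% in N1, N3, N8 and N9. In T1, T3 and T10 they held 0.0141%, 0.0149% and 0.0114%, so by share N8 lay below every tumor. In the clusters themselves the HOXA genes (chromosome 14) summed to between 8.14 (N3) and 55.0 FPKM (N1). The HOXB genes (chromosome 9, 24792889 to 24961243, CanFam3.1) summed to between 5.43 (N8) and 35.6 FPKM (T3). The HOXC genes (chromosome 27, 1210345 to 1323370) summed to between 1.38 (N9) and 57.3 FPKM (N1), and the HOXD genes (chromosome 36, 19907442 to 19996296) to between 8.06 (N3) and 56.6 FPKM (N1). *HOXB1* and the HOTAIR segment HOTAIR_2 were listed at 0 in every sample. Of the HOX genes, 29 reached 1 FPKM in at least 1 sample, and 4 (*HOXA5*, *HOXA7*, *HOXC6* and *HOXD8*) did so in all 7. The other 4 HOX genes (*HOXB1*, *HOXB2*, *HOXB9* and *HOXD1*) stayed between 0 and 0.918 FPKM. No row carried the symbols *HOXA9*, *HOXC5*, *HOXC8*, *HOXC9*, *HOXD9* or *HOXD13*, which were not analysed here. Features with no gene symbol lay inside the listed span of HOXA (1), HOXB (1) and HOXC (3), and whether any is one of these genes was not examined.

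**Figure D1:**
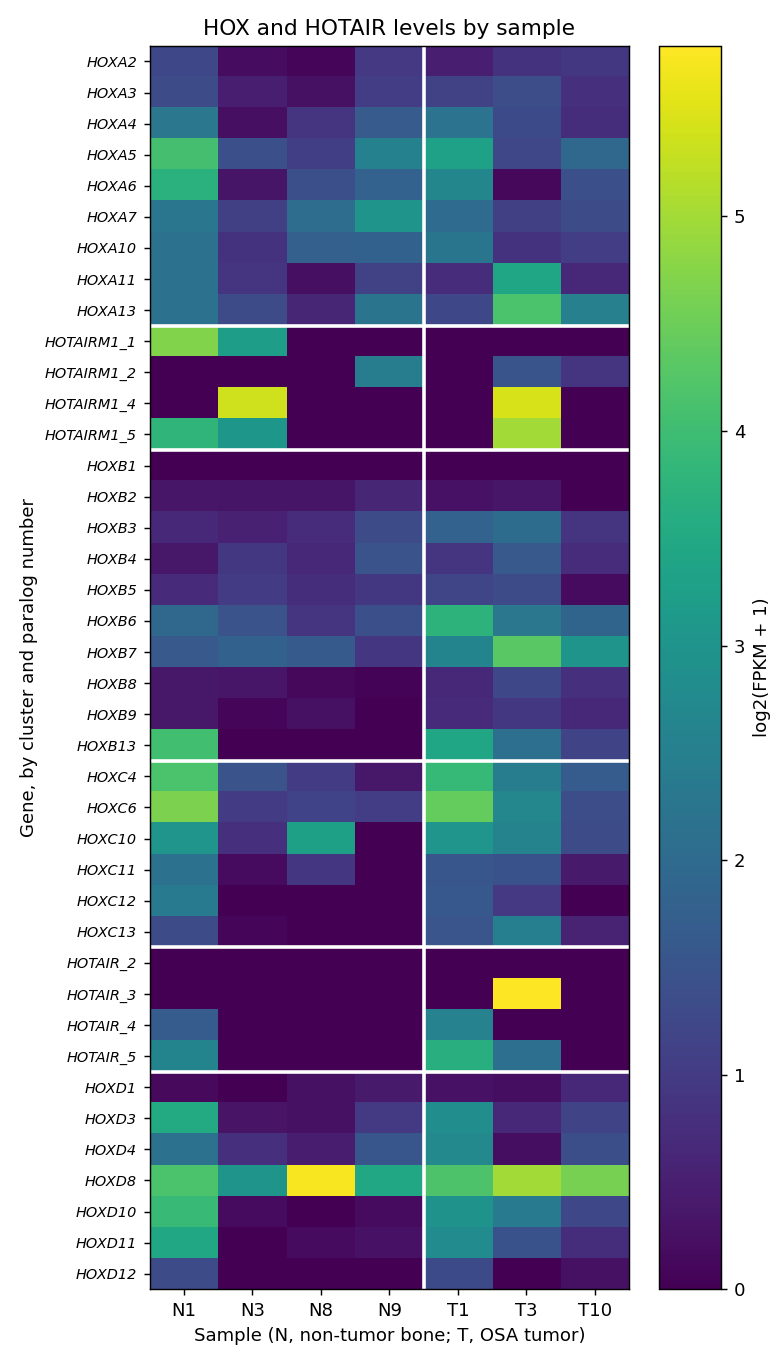
Level of 40 of the 41 members (rows, by cluster and paralog number) in each of the 7 samples (columns, non-tumor then tumor), as log2(FPKM + 1) in color. N1 and T1 carry high values through HOXC and HOXD, and *HOXD8* is present in every sample.

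The samples differed in their cell types, which bears on every comparison below. Osteoblast markers (9 listed genes) summed to 7471, 1723, 162 and 504 FPKM in N1, N3, N8 and N9 and to 12761, 1962 and 3250 FPKM in T1, T3 and T10, with none at 0 in any sample. Osteoclast markers (6 genes) were also highest in N1 and T1, at 1629 and 3399 FPKM, against 192 to 591 in the other 5 samples. Skeletal muscle markers (8 genes) summed to 58.5, 850, 69556 and 34713 FPKM in N1, N3, N8 and N9, against 2.26 to 11.3 in the tumors, with *MYOD1* at 0 in N1, N3 and the 3 tumors. *CKM* was listed at 35044 FPKM in N8 and at 0 in N9, so the gap between these 2 sums lies in that gene. Erythroid markers (9 genes) summed to 7.17, 3093, 4556 and 201 FPKM in N1, N3, N8 and N9, against 3.67 to 77.6 in the tumors, with *SLC4A1* at 0 in T1 and T3. N8 and N9 thus carried more muscle than osteoblast RNA by these lists, and N1 lay nearer to the tumors than to the other non-tumor samples in its erythroid and muscle sums. Called lower in tumor were 5 of 7 tested muscle, 7 of 9 erythroid, 5 of 5 granulocyte, 3 of 6 endothelial and 2 of 3 adipocyte markers. Called higher were 3 of 6 chondrocyte markers and 1 of 9 osteoblast markers, and none of the osteoclast, hematopoietic progenitor, B lymphocyte, macrophage or cell cycle markers was called either way or had an unadjusted *p* under 0.05. With a sample left out these counts moved. The erythroid count was 9 without N1 and 6 without N9, but 1 without N3, 0 without N8, 1 without T1, 1 without T3 and 2 without T10. The endothelial count was 5 without T1, 3 without N1 and 1 without any other sample, and the adipocyte count was 1 to 3. The muscle and granulocyte counts were 4 to 7 and 3 to 5, the osteoblast and chondrocyte counts 0 to 5 and 2 to 6, and at most 2 were called in a direction in each of the other lists. In these bulk samples, fewer cells of a type and less RNA per cell cannot be told apart, and the part of cell types in the HOX values was not tested. Fragments behind 1 FPKM, estimated from the steps between low values, were 0.543 (N8) to 1.43 (T10) times those of N1.

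*HOXB7* was the only member called between the groups. Of the 31 members with a mean of at least 1 FPKM, the limma test over 13507 genes called *HOXB7* higher in tumor and none lower. A call is a difference of at least 1 on the log2(FPKM + 1) scale for which the unadjusted *p* is below 0.05. The limits were taken from the study's methods, which apply them to the fold change itself, and on the scale used here a difference of 1 is more than a 2-fold change for low genes. The same rule called 3.28% of all tested genes higher and 3.58% lower, so 1 of 31 members is near the background. None of the members had an adjusted *p* under 0.05 by limma with Benjamini-Hochberg adjustment, and 1 had an unadjusted *p* under 0.05. The difference was positive in 25 of 31 tested members and in 20 of the 24 HOX genes among them. Of these 24 it was positive in 16 without T1, 18 without N3 or N8 and 22 without N1. The members' median difference was 0.49, beside −0.02 over all tested genes. It was 0.85 without N1, 0.96 without T10, 0.30 without N8 and 0.31 without T1. Members that passed the filter through a high level in a single sample are among these counts, so the median carries no test.

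*HOXB7*, a central HOXB gene studied as a growth-promoting factor in several cancers, was at 2.07, 2.46, 2.14 and 0.898 FPKM in N1, N3, N8 and N9, and at 5.13, 19.0 and 7.01 in T1, T3 and T10. Every tumor sample lay above every non-tumor sample, as it did in 3.04% of all tested genes. The difference in *HOXB7* was 1.82 ± 0.55 on the log2 scale (SE, *n* = 4 and 3; limma adjusted *p* = 0.693). It passed the limits in 7 of 7 fits that left out a sample, at 1.31 to 2.17. A two-sided exact permutation test over the 35 assignments of 4 and 3 labels gave *p* = 0.0571, the smallest it can give, so no single gene can pass 0.05 by that test.

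The neighbours of *HOXB7* on the posterior side, *HOXB8* and *HOXB9*, also had no overlap between the groups, at lower levels. *HOXB8*, which holds back myeloid differentiation in mice when forced on, was at 0.292, 0.273, 0.0894 and 0.0372 FPKM in N1, N3, N8 and N9, and at 0.598, 1.40 and 0.743 in T1, T3 and T10. *HOXB9*, which patterns the thoracic skeleton, was at 0.303, 0.0774, 0.189 and 0 FPKM in N1, N3, N8 and N9, and at 0.648, 0.918 and 0.581 in T1, T3 and T10. The ratio of the mean FPKM of tumor to non-tumor was 5.49 for *HOXB7*, 5.27 for *HOXB8* and 5.03 for *HOXB9*. Neither *HOXB8* nor *HOXB9* reached the mean of 1 FPKM needed for the test. In the fit with no filter their differences were 0.69 and 0.59 on the log2 scale, below the limit of 1, with an unadjusted *p* under 0.05 and a limma adjusted *p* of 0.768 for each. At these levels the added 1 shrinks the difference, and the limit on its size alone kept them from a call in that fit. The exact permutation *p* was 0.0571 for both. Read in whole steps, *HOXB9* rested on about 0 to 3 fragments per non-tumor sample and 6 to 11 per tumor sample. *HOXB8* rested on about 1 to 15 and 23 to 71, and *HOXB7* on about 2 to 11 and 16 to 80, so these ratios have little precision. These are estimates from the largest step that divides the values, and a smaller step would raise them. Of all 41 members these 3 were the ones with every tumor sample above every non-tumor sample, and no member had the opposite order. Of all 24580 features, 2.41% had every tumor sample above every non-tumor sample.

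*HOXB6*, the neighbour on the anterior side and a gene of the lateral mesoderm, was at 2.91, 1.81, 0.839 and 1.66 FPKM in N1, N3, N8 and N9 and at 12.4, 3.89 and 2.67 in T1, T3 and T10. T10 lay below N1, and the difference of 1.20 ± 0.58 (SE) did not pass the test (two-sided exact permutation *p* = 0.114). *HOXB3*, of the paralog group that patterns the pharyngeal arches, was at 0.443 to 1.52 FPKM in the non-tumor samples and at 2.55, 3.11 and 0.857 in T1, T3 and T10. Its difference of 0.78 ± 0.53 did not pass the test. *HOXB4*, known for expanding blood stem cells when overexpressed, was at 0.303 to 1.81 FPKM in non-tumor and 0.654 to 2.09 in tumor samples, a difference of 0.22 ± 0.53. *HOXB5* was at 0.626 to 1.01 FPKM in non-tumor and 0.131 to 1.52 in tumor samples. Over the 5 tested HOXB genes every difference was positive, with a median of 1.20, the highest of the 4 clusters.

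**Figure D2:**
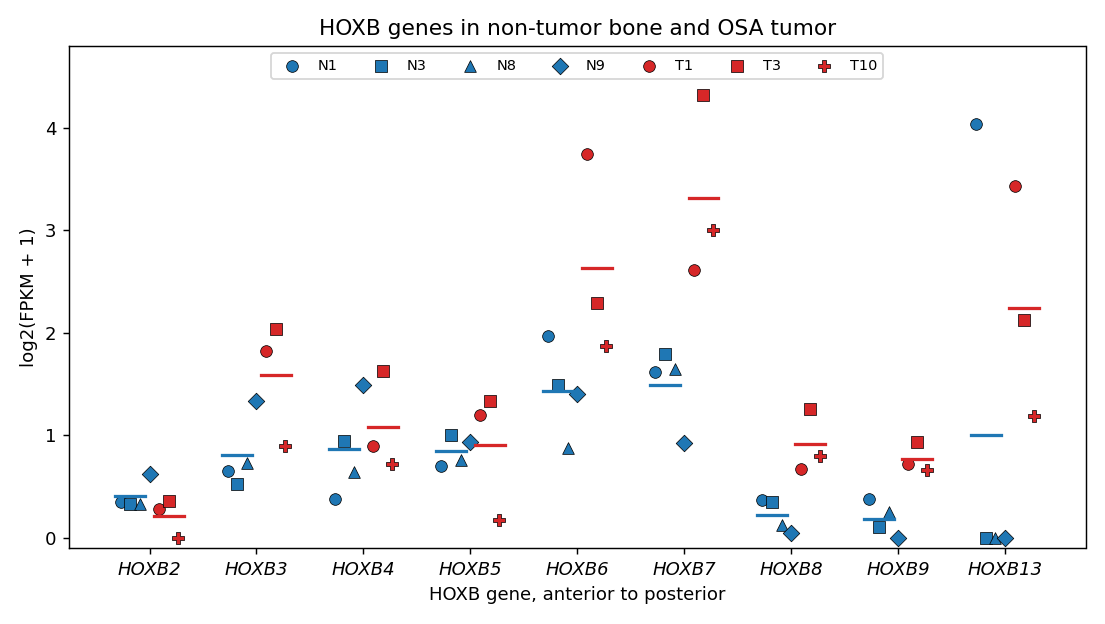
log2(FPKM + 1) of 9 HOXB genes (horizontal axis, anterior to posterior) in the 4 non-tumor (blue) and 3 tumor (red) samples, with a bar at each group's mean. For *HOXB7*, *HOXB8* and *HOXB9* all red points lie above all blue points, while *HOXB13* is present in N1 and the 3 tumors and at 0 in the other non-tumor samples.

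Some posterior genes, and also *HOXC4* and *HOXC6* described further below, split the non-tumor samples, with higher levels in N1 and the tumors. *HOXB13*, the most posterior HOXB gene, known from the prostate and the tail bud, was at 15.4 FPKM in N1 and at 0 in N3, N8 and N9, against 9.78, 3.35 and 1.28 in T1, T3 and T10. *HOXD10*, a gene of the distal trunk and limb, was at 14.1, 0.128, 0 and 0.130 FPKM in N1, N3, N8 and N9, against 6.84, 4.35 and 1.41 in T1, T3 and T10. *HOXD11*, which with *HOXA11* patterns the middle segment of the limb, was at 10.02 FPKM in N1 and at most 0.219 in the other non-tumor samples, against 5.98, 1.75 and 0.685 in T1, T3 and T10. In each of these genes the tumors lay above 3 of the non-tumor samples and below the fourth. With all 7 samples the differences were 1.24 ± 1.06, 1.15 ± 0.98 and 0.69 ± 0.92 (SE) for *HOXB13*, *HOXD10* and *HOXD11*, and none passed the test.

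*HOXC13*, known for its part in hair and nail formation, was at 1.54 FPKM in N1, 0.0556 in N3 and 0 in N8 and N9, against 1.88, 4.68 and 0.467 in T1, T3 and T10. The difference was 1.17 ± 0.64 (SE, two-sided exact permutation *p* = 0.114). *HOXC12* was at 4.18 FPKM in N1, 1.999 in T1 and 0.953 in T3 and at 0 in the other 4 samples. *HOXD12* was at 1.56 FPKM in N1, 1.47 in T1 and 0.197 in T10 and at 0 elsewhere. These low-level genes were thus read in N1 and T1 and in at most 2 further samples at more than 0.1 FPKM.

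The 12 HOX genes of paralog groups 9 to 13 summed to 68.5, 4.23, 13.2 and 7.79 FPKM in N1, N3, N8 and N9, against 43.5, 49.9 and 12.9 in T1, T3 and T10. Those at 0 numbered 0, 4, 5 and 7 in N1, N3, N8 and N9, and 0, 1 and 1 in T1, T3 and T10. The 12 genes of groups 1 to 4 summed to 44.6, 6.39, 4.45 and 15.3 FPKM in N1, N3, N8 and N9 and to 40.2, 19.6 and 12.0 FPKM in T1, T3 and T10. The 9 genes of groups 5 to 8 summed to 78.6, 16.6, 63.1 and 29.1 FPKM in N1, N3, N8 and N9 and to 74.5, 64.7 and 41.6 FPKM in T1, T3 and T10. In the posterior band the gap between N1 and the other non-tumor samples was the widest, and T10 lay below N8. These bands were set after the values were seen and carry no test.

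Leaving out N1 moved the comparison. Without it, 7 members were called higher in tumor (*HOXB7*, *HOXB13*, *HOXC4*, *HOXC6*, *HOXC13*, *HOXD10* and *HOXD11*) and none lower, of the 31 tested, where the rule called 6.31% of all genes higher and 8.48% lower. The differences without N1 were 2.25 ± 0.64 for *HOXB13*, 2.10 ± 0.57 for *HOXD10*, 1.52 ± 0.61 for *HOXD11* and 1.502 ± 0.591 for *HOXC13* (SE, *n* = 3 and 3). Those of *HOXB7*, *HOXC6* and *HOXC4* were 1.86 ± 0.61, 1.75 ± 0.77 and 1.71 ± 0.68. None of the members had an adjusted *p* under 0.05 without N1 either, and the smallest was 0.162 (limma). Cell type markers moved in the same fit. Without N1, 5 of 9 osteoblast and 6 of 6 chondrocyte markers were called higher, against 1 and 3 with all 7 samples. Leaving out both N1 and T1, chosen after the values were seen, gave 5 members called higher (*HOXA13*, *HOXB7*, *HOXB13*, *HOXC13* and *HOXD10*), beside 6.72% of all tested genes. *HOXA13* was not among the 7. Leaving out T10 gave 5 members beside 2.21% of all genes, and leaving out T1 gave 2 beside 4.53%. These counts describe what 1 or 2 libraries decide. Counting separation in place of the fit, 9.72% of all tested genes had every tumor sample above N3, N8 and N9.

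**Figure D3:**
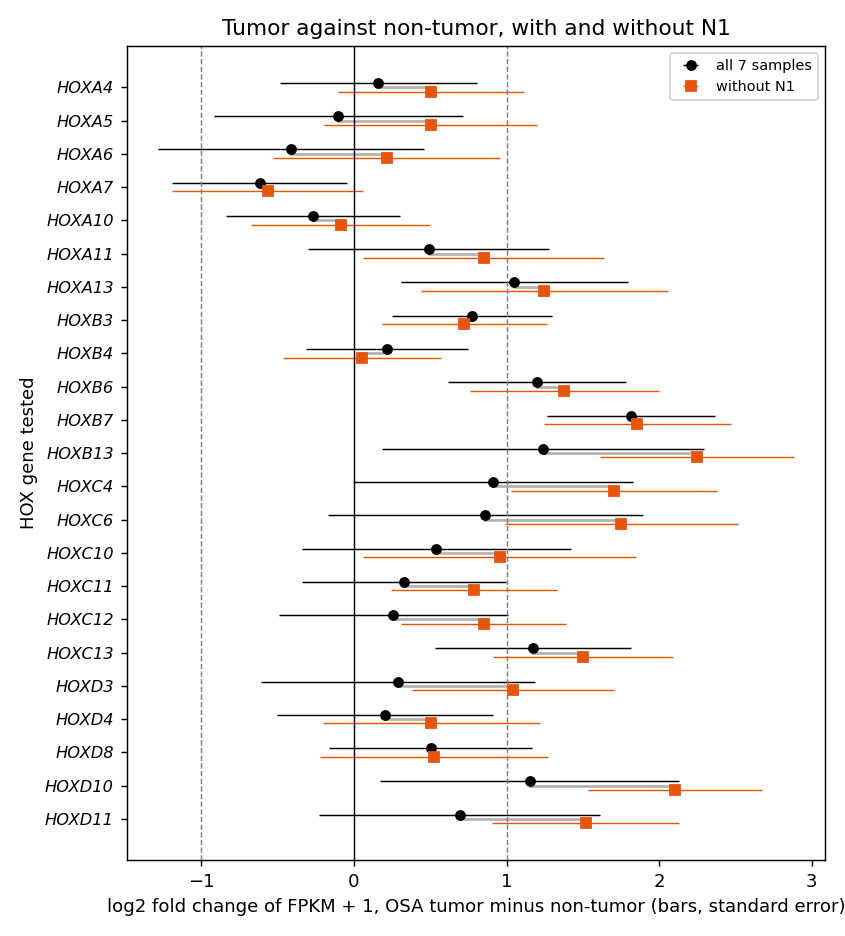
log2 fold change of FPKM + 1 (tumor minus non-tumor, horizontal axis, with its standard error) of 23 of the 24 tested HOX genes, from all 7 samples (black circles) and without N1 (orange squares). Dashed lines mark a difference of 1 in either direction. *HOXB7* barely moves, from 1.82 to 1.86, and *HOXD10* moves from 1.15 to 2.10.

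N1 and T1 shared a high level of many HOX genes. Both lay above the other 5 samples in 15 of the 33 HOX genes, of which 7 were in groups 9 to 13, 3 in groups 5 to 8 and 5 in groups 1 to 4. Over all 24580 features it was so for 2761. Among tested genes this was so for 14 of 24 HOX genes (58.3%), beside 15.2% of all tested genes. The filter averages N1 and T1 with the other samples, so genes can pass through a high level there, and this contrast is partly built in. Applied without N1 and T1, the filter kept 18 HOX genes, and 13341 genes in all in place of 13507. *HOXC6*, a gene of the thoracic and forelimb level, was at 24.0 FPKM in N1 and 20.5 in T1, against 1.01, 1.23 and 1.08 in N3, N8 and N9 and 5.44 and 1.58 in T3 and T10. *HOXC4*, the most anterior HOXC gene of the table, was at 16.9 FPKM in N1 and 13.7 in T1, against 0.305 to 1.801 in the other non-tumor samples and 4.50 and 2.23 in T3 and T10. *HOXD3*, a gene of the neck level, was at 10.6 FPKM in N1 and 6.21 in T1 and between 0.193 and 1.29 in the other 5 samples. *HOXA5*, known for lung and neck patterning, was at 16.1 FPKM in N1 and 9.03 in T1, against 1.66, 1.09 and 4.83 in N3, N8 and N9 and 1.36 and 2.90 in T3 and T10. *HOXA6* was at 11.9 FPKM in N1 and 5.32 in T1 and between 0.0916 and 2.54 in the other 5 samples. The pattern was chosen for description after the values were seen, and the cell type lists moved with it. N1 and T1 had the highest osteoblast and osteoclast sums and the lowest erythroid sums of the 7 samples, and the part of these cells in the pattern was not tested.

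Over the 29 HOX genes that reached 1 FPKM, Pearson's r of log2(FPKM + 1) between N1 and T1 was 0.819 and Spearman's rho was 0.817, the second and first of 21 sample pairs. Over the 13476 other tested genes r between N1 and T1 was 0.917, the first of the 21 pairs, and the next was 0.811 (N8 with N9). The HOX profile of N1 was far from that of the other non-tumor samples, with r of 0.200, 0.302 and 0.144 with N3, N8 and N9, and as far from that of tumor T3, at 0.195. With T10 it was 0.415. N3 and T10 had the highest HOX r, 0.844, but ranked 10 of 21 over the other genes, at 0.705. N3 and T3, which share a number, had an r of 0.654 over HOX genes (rank 7) and 0.742 over the others (rank 7). The genes share libraries and are not independent replicates, so these values are a description.

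**Figure D4:**
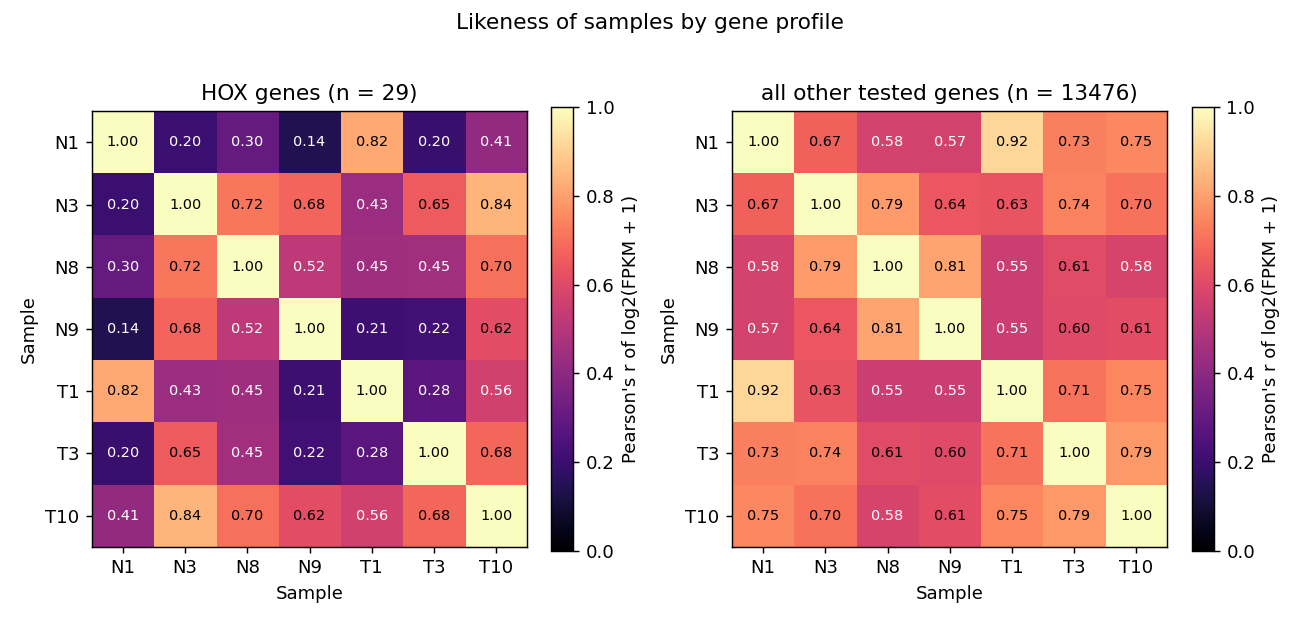
Pearson's r of log2(FPKM + 1) between each pair of the 7 samples, over the 29 HOX genes that reached 1 FPKM (left) and over the 13476 other tested genes (right). N1 with T1 stands at 0.82 on the left and 0.92 on the right, and N1 with the other non-tumor samples and T3 stands at 0.14 to 0.30 on the left.

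T3 was the highest sample for 10 HOX genes, among them the most posterior of HOXA. *HOXA13*, which patterns the hand and foot, was at 16.8 FPKM in T3, against 1.38 in T1, 4.72 in T10 and 0.538 to 3.73 in the non-tumor samples. *HOXA11* was at 9.56 FPKM in T3 and between 0.177 and 3.57 in the other 6 samples. Neither passed the test, at 1.05 ± 0.75 and 0.49 ± 0.79 (SE). Without T3 the difference in *HOXA13* was 0.29, and that in *HOXA11* was −0.41. *HOXA10*, a gene of the upper limb segment that also acts in bone cells, was at 0.789 to 3.58 FPKM in non-tumor and 0.806 to 3.76 in tumor samples, a difference of −0.27 ± 0.57. *HOXA7* was at 1.15 to 7.01 FPKM in non-tumor and 1.15 to 3.09 in tumor samples, a difference of −0.62 ± 0.57, the lowest of the tested HOX genes. Of the 8 tested HOXA genes 4 had a positive difference, with a median of 0.03, the lowest of the clusters.

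At the anterior end, *HOXA4* was at 0.171 to 3.91 FPKM in non-tumor and 0.694 to 3.61 in tumor samples. *HOXA2* and *HOXA3*, genes of the pharyngeal arches, reached 1.37 and 1.59 FPKM at most and were not tested. *HOXD4* was at 0.370 to 3.46 FPKM in non-tumor and 0.163 to 5.61 in tumor samples. The groups overlapped in each of these genes.

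*HOXD8* was the one HOX gene above 5 FPKM in all 7 samples, and its level did not follow the rest. It was at 16.8, 6.94, 52.2 and 10.2 FPKM in N1, N3, N8 and N9, and at 17.1, 30.8 and 23.4 in T1, T3 and T10. N8 was the highest and N3 the lowest, and the groups overlapped. The difference was 0.50 ± 0.66 (SE, two-sided exact permutation *p* = 0.514). *HOXC10*, known from the hindlimb and the lumbar region, was at 7.19, 0.738, 8.88 and 0 FPKM in N1, N3, N8 and N9 and at 7.16, 4.998 and 1.56 in T1, T3 and T10. Its neighbour *HOXC11* was at 3.54, 0.120, 0.879 and 0 FPKM and at 1.94, 1.74 and 0.336 in the same order. Neither separated the groups, at 0.54 ± 0.88 and 0.33 ± 0.67.

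The HOTAIRM1 segments lie at the anterior end of HOXA, and the HOTAIR segments between *HOXC11* and *HOXC12*. They are listed with intervals of only 66 to 214 bases, so that a single fragment weighs more in FPKM than in the longer genes, and a value of 0 may be a failed estimate. HOTAIR_5 was at 5.16 FPKM in N1, 11.6 in T1 and 3.31 in T3 and at 0 in the other 4 samples, and HOTAIR_4 at 2.20 in N1 and 4.93 in T1 and at 0 elsewhere. HOTAIR_3 was listed at 54.5 FPKM in T3 and at 0 in the other 6 samples. The segments of HOTAIR were thus read in the samples N1, T1 and T3, which were also the 3 samples in which *HOXC12* was above 0. HOTAIRM1_1 was at 24.8 FPKM in N1 and 8.56 in N3 and at 0 in the other 5 samples, a difference of −1.99 ± 1.12 that did not pass the test. HOTAIRM1_4 was at 40.5 FPKM in N3 and 42.3 in T3 and at 0 elsewhere, and HOTAIRM1_5 at 12.9 in N1, 7.32 in N3 and 31.0 in T3. HOTAIRM1_2 was at 4.46 FPKM in N9, 1.83 in T3 and 0.837 in T10. Segments of 1 RNA differed in the samples that carried them, and T1 and N8 were at 0 for all 4 of HOTAIRM1.

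Of the proteins that bind DNA with HOX factors, 1 of 8 tested was called higher and none lower. This was *MEIS3*, at 1.23, 1.18, 0.796 and 1.21 FPKM in N1, N3, N8 and N9 and at 10.9, 2.46 and 2.54 in T1, T3 and T10 (difference 1.33 ± 0.57, limma adjusted *p* = 0.693). It passed the limits in 2 of 7 fits that left out a sample (those without T3 or T10), with differences of 0.74 to 1.63 over the 7. *PBX2* was at 12.3 to 21.4 FPKM in non-tumor and 10.1 to 18.6 in tumor samples. *PBX3* was at 3.92 to 10.8 FPKM in non-tumor and 11.4 to 21.2 in tumor samples, with no overlap and a difference of 1.03 ± 0.48 that did not pass the test. *PBX4* was at 0.0975 to 1.34 FPKM in non-tumor and 0.222 to 1.48 in tumor samples. *MEIS1* was at 1.78 to 2.47 and 1.68 to 3.23 FPKM, and *MEIS2* was at 20.7 FPKM in T3 and at most 1.803 in the other 6 samples.

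None of 26 tested Polycomb proteins and none of 13 tested Trithorax and related activators was called in either direction by limma, and none had an unadjusted *p* under 0.05. Leaving out N1 or T1 gave calls in each list, at most 2 in a direction. Their median differences were 0.17 and −0.11. Of 10 tested upstream regulators 1 was called higher, *GDF11*, a signal of the trunk-to-tail transition that turns on posterior HOX genes in the embryo. *GDF11* was at 4.19, 3.83, 2.78 and 1.69 FPKM in N1, N3, N8 and N9 and at 5.71, 24.6 and 11.5 in T1, T3 and T10 (difference 1.69 ± 0.56, limma adjusted *p* = 0.693). It was called in 6 of 7 fits that left out a sample and not without T3, where the difference was 1.19. Of the genes that flank the clusters, none of 5, 10, 7 and 5 tested beside HOXA, HOXB, HOXC and HOXD was called, and none had an unadjusted *p* under 0.05. Leaving out a sample gave at most 1 called higher and 2 lower beside a cluster, in HOXB and HOXC.

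Limb identity genes were read because HOX levels depend on place. *TBX5*, which marks the forelimb, was at 3.74 FPKM in N1, 6.48 in T1, 2.66 in T10 and 0.520 in T3, and at 0, 0.208 and 0.175 in N3, N8 and N9. *PITX1*, which marks the hindlimb, was at 9.17, 0.247, 8.88 and 13.8 FPKM in N1, N3, N8 and N9 and at 7.35, 4.67 and 0.538 in T1, T3 and T10. *TBX4*, a second hindlimb gene, stayed at or below 0.390 FPKM in all 7 samples. *HAND2*, a posterior limb bud gene, was at 9.17, 0.997, 0 and 0 FPKM in N1, N3, N8 and N9 and at 7.42, 11.4 and 5.54 in T1, T3 and T10, and was called higher (difference 2.05 ± 0.82, limma adjusted *p* = 0.693). It was called in 1 of 7 fits that left out a sample, the one without N1, with differences of 1.69 to 2.81 over the 7. N1 and T1 had both *TBX5* and *PITX1* above 3 FPKM, and no other sample did. Skeletal site was not given per sample, so position and group cannot be told apart.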

How the data were processed

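RNA of 4 non-tumor and 3 tumor samples was sequenced as stranded paired-end libraries. The authors used Trim Galore for trimming, Tophat2 for alignment (CanFam3.1, Ensembl iGenomes annotation) and Cufflinks/Cuffdiff to compute FPKM per gene. Versions are not given in the sources used here. FPKM values were deposited for all 7 samples and used as deposited. A second deposited table holds the authors' own comparison (group FPKM, log2 fold change, test statistic, *p* and *q*), of which only the gene positions were used, with 1 added to each start.

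Genes whose 7 samples averaged 1 FPKM or more (13507 of 24580) were tested on log2(FPKM + 1) with limma 3.58.1 (R 4.3.3; moderated test with trend) in 1 fit, and *p* was adjusted over all tested genes by Benjamini-Hochberg. Single members also had a two-sided exact permutation test (scipy). The fit was tested on simulated data. Fragment totals are not in the table, so relative depth was estimated from steps between low values (tolerance 0.15, set after seeing them). Lists of cofactors, Polycomb, Trithorax, upstream, limb, flanking and cell type marker genes were described by counts. Named were all members that reached 1 FPKM, at most 4 called genes of a context list, and PBX, MEIS, *TBX4*, *TBX5* and *PITX1*. The members and lists were chosen with earlier results of these data known. Alternatives were other pseudocounts (0.1, 0.01), filters, scalings, weights, a replicate block and leaving out samples. With samples left out, the filter was first reapplied to those remaining, and the gene set of the full fit was chosen for the text after both had been seen. Some items are counted in the totals but not reported here by name or value. No sequences were printed because no sequence table was used here.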

Additional observations from a re-analysis of the deposited data

Results flagged for a closer look

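Dixon's ratio, the gap from the most extreme of the 4 non-tumor samples to the nearest other divided by the range of log2(FPKM + 1), was above the tabulated critical value for 4 samples in 12 of 38 members that varied among these samples. By the same measure 6.94% of all tested genes that varied were above it, 2.48% with N1 as the high sample, beside 33.3% and 26.7% of the tested members. Genes that passed the filter through a high level in N1 are among both. Chance flags about 1 group in 20, but not where 3 samples are tied at 0, which fixes the ratio at 1.00, as in 7 of the 12. Members of a cluster are not independent of each other. N1 was the high sample in 9 of the 12. The ratio was 1.00 for *HOXB13*, *HOXC12*, *HOXD12*, HOTAIR_4 and HOTAIR_5, in which the other non-tumor samples were at 0. It was 0.959 for *HOXC6*, 0.942 for *HOXC13*, 0.955 for *HOXD10* and 0.917 for *HOXD11*. In the other 3 the high sample was N9 for HOTAIRM1_2 (ratio 1.00) and *HOXB2* (ratio 0.924), and N3 for HOTAIRM1_4 (ratio 1.00). *HOXB2* stayed under 1 FPKM in every sample, and the HOTAIRM1 segments are short intervals.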

How the results depend on the processing

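The count of members called higher in tumor was 1, and it was 2 with quantile normalization, 2 with the replicate number as a random block and 5 without N1 and T1. *HOXB6* was called beside *HOXB7* with quantile normalization, with the random block and without T10. Leaving out a sample gave 1 to 7, with 7 called without N1. With the filter reapplied to the remaining samples these counts were again 1 to 7, 4 in place of 5 without T10, and 3 in place of 5 without N1 and T1. The count called lower was 0, and 1 (HOTAIRM1_1) with FPKM rescaled to the same sum and under both blocks. Leaving out a sample gave 0 to 1, with HOTAIRM1_1 called without N8 or N9. The members' median of 0.49 was 1.40 with a pseudocount of 0.01, and 0.30 to 0.96 with a sample left out.

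*HOXB7* was called in every setting but the fixed block on samples numbered 1 and 3 (1.76), in which *HOXB3* was the member called higher in its place. Only 2 numbers are shared and no label says that they mark 1 dog, so the numbers were not taken as pairs. Correlations of the deviations from the group means were 0.422 for N1 with T1 and 0.211 for N3 with T3. These were higher than for any other non-tumor with tumor sample, the next being 0.135 for N9 with T10. Over the tested HOX genes they were 0.614 and 0.537, beside 0.585 for N9 with T10, which share no number. Pairing was not tested. Equal sums lifted the median of all genes to 0.12.

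Differences that changed sign belonged to members that were not called. Under other processing, or without both N1 and T1, they were *HOXA5* (−0.10, 0.034 with quantile normalization, 0.31 with sample weights), *HOXA10* (0.035, fixed block), HOTAIRM1_5 (0.29 with sample weights, 1.48 without N1 and T1), *HOXD3* (−0.18, fixed block) and *HOXD4* (−0.017 with a pseudocount of 0.01, −0.0145 with the fixed block, −0.13 without N1 and T1). Leaving out a sample, with either filter, gave −0.23 to 0.50 for *HOXA4*, −0.68 to 0.50 for *HOXA5*, −1.04 to 0.23 for *HOXA6*, −0.41 to 0.96 for *HOXA11*, −0.17 to 0.79 for HOTAIRM1_2, −1.34 to 1.81 for HOTAIRM1_4, −1.71 to 0.79 for HOTAIRM1_5, −0.055 to 0.42 for *HOXB4*, −0.056 to 1.05 for *HOXC10*, −0.11 to 0.85 for *HOXC12*, −0.42 to 0.86 for HOTAIR_4, −0.36 to 1.04 for *HOXD3* and −0.44 to 0.82 for *HOXD4*. The cause was not tested. FPKM with no fragment totals limit what can be said of genes near 0.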
